A study of Homo sapiens with 6 samples.

Results

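Nuclear receptors are transcription factors that bind DNA and, in many cases, a small fat-soluble ligand such as a steroid, a bile acid, an oxysterol, a retinoid or a thyroid hormone. Many of them pair with a retinoid X receptor on DNA, recruit coactivators when the ligand is bound and corepressors when it is not. In hepatocytes the family governs bile acid synthesis, cholesterol efflux, fatty acid oxidation and the handling of foreign compounds. The family examined here was a list of 46 receptor genes, chosen by name, and 39 of them were measured among 18372 genes. A gene was measured when a transcript cluster, which is the set of probes that the array assigns to a transcript, carried its symbol alone and was not 0 on every array. Where a gene had several clusters, that with the highest mean was used.

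The other 7 receptors were not analysed here. HNF4A, NR0B1, NR1H2, NR1H4, NR1I2 and NR2F2 had no cluster under their own symbol in the annotation used, and RARA shared its cluster with other symbols. This removes the bile acid receptor FXR (NR1H4), the pregnane X receptor (NR1I2) and the hepatocyte regulator HNF4A from the comparison, all well known in liver.

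RNA came from HepG2, an established human hepatoma cell line that keeps many hepatocyte functions. The groups were 3 arrays of untreated cells and 3 arrays of cells given a water extract of *Barringtonia racemosa* leaf at 50 µg/ml for 24 h, named leaf-treated here. Both groups were the same line in the same medium, and neither a vehicle nor a time is named for the untreated cells. The labels call the replicates biological but do not tell whether each was a culture of its own, so the p-values cover the spread between these arrays and nothing wider. All levels are log2 expression values, on which a difference of 1 is a doubling, and every difference is leaf-treated minus untreated.

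The table gives no call of presence or absence, so a receptor was set against the olfactory receptors, a gene family used mainly by the olfactory epithelium. The 95th percentile of 339 olfactory receptor genes, covered by 357 clusters, was 3.22, 3.35 and 3.25 on untreated arrays 1 to 3, and 3.42, 3.25 and 3.49 on leaf-treated arrays 1 to 3. This level is a stand-in for background and not a detection limit. Of the 39 measured receptors, 24 lay above it on all 6 arrays, which was 61.5% of the receptors beside 56.4% of all genes measured. They were NR0B2, NR1D1, NR1D2, NR1H3, NR1I3, NR2C1, NR2C2, NR2E3, NR2F1, NR2F6, NR3C1, NR4A1, NR5A1, NR5A2, NR6A1, HNF4G, PPARA, PPARD, PPARG, RORA, RXRA, THRA, THRB and ESRRA. Another 4 were above it on part of the arrays, namely RXRB on 5, NR4A3 on 4, and RARG and RORB on 1 each. The remaining 11 were above it on no array, and these were NR2E1, NR3C2, NR4A2, RARB, RXRG, VDR, ESR1, ESR2, ESRRB, ESRRG and PGR. Against the 99th percentile of the olfactory receptors 17 receptors stayed above, and NR1H3, NR1I3, NR2E3, NR4A1, NR5A1, RORA and THRA no longer did.

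**Figure D1:**
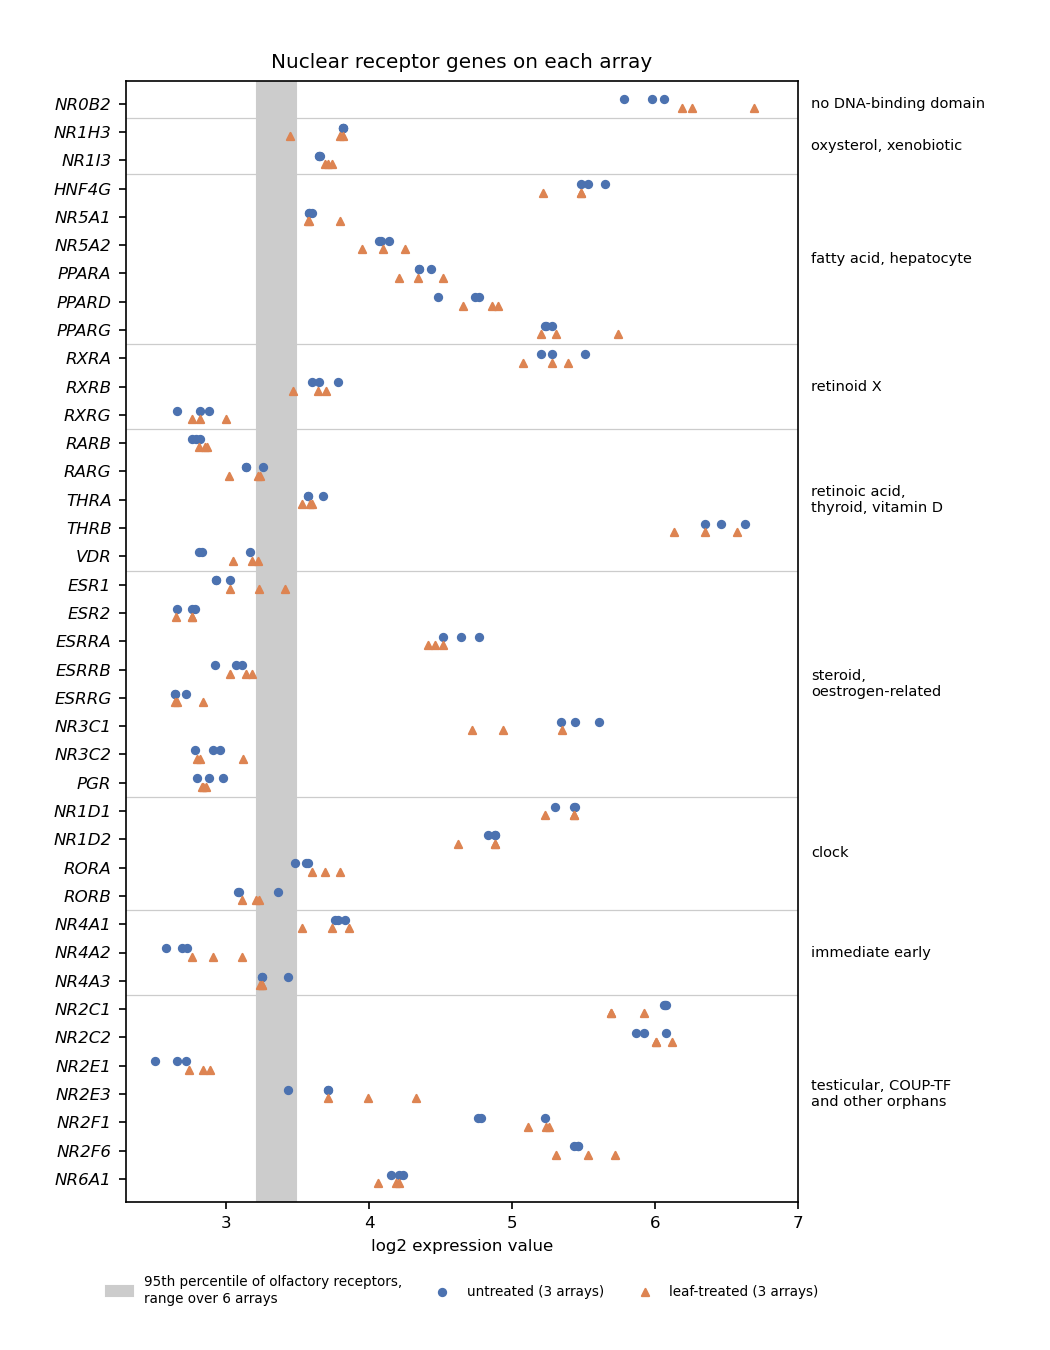
Log2 expression value (horizontal axis) of the 39 measured nuclear receptor genes (rows, grouped by role) on 3 untreated arrays (circles) and 3 leaf-treated arrays (triangles). The grey band is the range over the 6 arrays of the 95th percentile of the olfactory receptors, 3.22 to 3.49, and 24 receptors lay above the level of the same array on all 6 arrays.

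The leaf extract was compared with no treatment to ask which receptors of the hepatoma cell differed in transcript level. No receptor passed the test after adjustment. The clearest differences were a lower level of the testicular receptor NR2C1 and of the glucocorticoid receptor NR3C1, and a higher level of the bile acid corepressor NR0B2, each estimated at less than 1.5 fold. The limma fit over all clusters called 0 of 39 receptors at an adjusted p under 0.05, beside 0.00544% of all genes, and the smallest adjusted p of a receptor was 0.44. At an unadjusted p under 0.05, 3 receptors were higher (NR0B2, NR4A2 and ESR1) and 2 were lower (NR2C1 and NR3C1). Those counts are 7.69% and 5.13% of the receptors, beside 3.83% of all genes higher and 5.9% lower. The counts were near these background shares.

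The criteria that the study set itself, a difference of at least 1.5 fold and an unadjusted p under 0.05, were met by 0 receptors and by 0.849% of all genes. The 3 leaf-treated values lay above all 3 untreated values for 5 receptors (NR0B2, NR1I3, NR2E1, NR4A2 and RORA; 12.8%) and below them for NR2C1 alone (2.56%). Over all genes the groups lay apart in the same way for 6.16% higher and 7.36% lower. With 3 arrays against 3, an exact two-sided permutation test of a single gene cannot give a p below 0.10. The median difference was 0.0083 over the 39 receptors and 0.011 over all genes.

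The 24 receptors above the olfactory level gave the same picture. Of these, 1 was higher (NR0B2; 4.17%) and 2 were lower (NR2C1 and NR3C1; 8.33%) at an unadjusted p under 0.05, beside 4.13% and 9.64% of all genes above that level. Their median difference was -0.020, beside -0.030 for all such genes, with 11 positive and 13 negative differences. For 20 of the 24 the 95% interval of the difference lay within 1.5 fold in both directions, and the exceptions were NR0B2, NR3C1, NR2E3 and NR2F1. The interval reached from 0.14 to 0.40 on either side of the estimate.

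These counts turned on single arrays and on the scaling. The count of receptors at an unadjusted p under 0.05 went from 5 to 2 without untreated array 1. The shares of all genes fell too, from 3.83% higher and 5.9% lower to 2.04% and 2.95%. The count of receptors went to 3 without untreated array 3, leaf-treated array 1 or leaf-treated array 3. In these fits 2.62%, 3.21% and 3.61% of all genes were higher, and 3.77%, 3.64% and 3.83% lower. The receptors changed too, as NR2E1 and NR2F1 entered without untreated array 3, and NR2E3 without leaf-treated array 3. When each array was centred on its own median, 1 receptor was higher and 3 were lower at that p, beside 1.90% and 9.69% of all genes, and the receptors whose groups lay apart were 2 higher and 7 lower in place of 5 and 1. Centring also moved the median difference of all genes to -0.053. After quantile normalisation the receptors whose groups lay apart were 4 higher and 4 lower. Without untreated array 2, leaf-treated array 2 or leaf-treated array 3 the groups lay apart for 14, 13 and 10 receptors in place of 6, fewer arrays making this easier by construction. The share of all genes whose groups lay apart is not given for centring, quantile normalisation or the fits with an array left out. These counts therefore have no background beside them and cannot be read as a shift of the receptors.

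**Figure D2:**
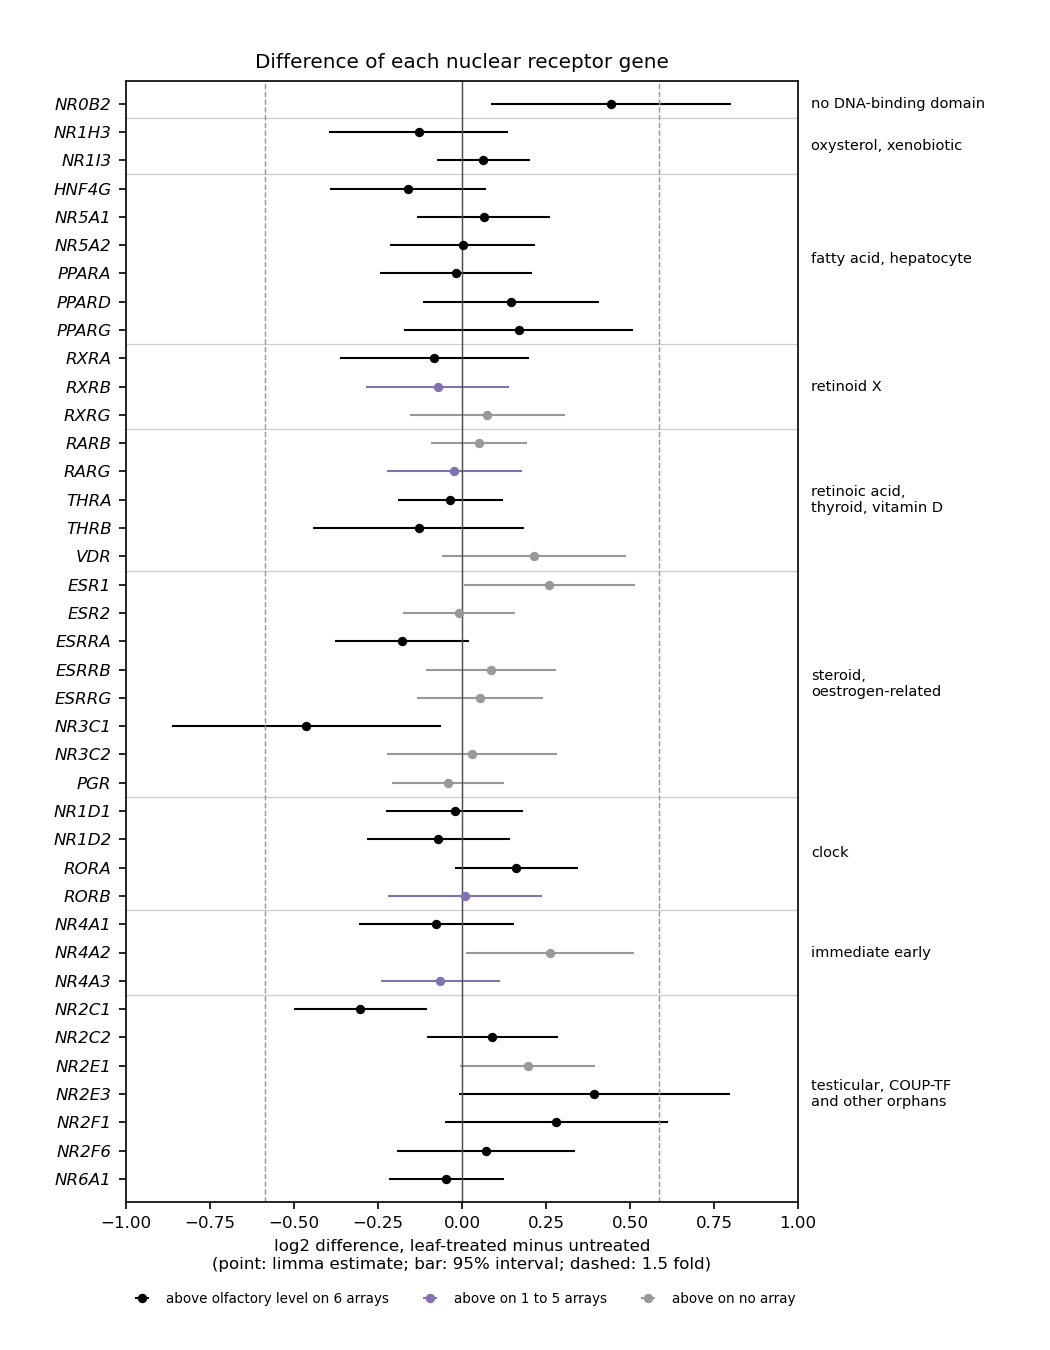
Log2 difference between leaf-treated and untreated cells (horizontal axis) of each measured receptor (rows, grouped by role), with the limma estimate as a point and its 95% interval as a bar, coloured by position against the olfactory level. Intervals of NR0B2, NR3C1, NR2C1, NR4A2 and ESR1 leave out 0, and no estimate reached the dashed lines at 1.5 fold.

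Many nuclear receptors recognise copies of the hexamer AGGTCA, called a half-site. The promoters of the receptor genes were therefore searched for AGGTCA on both strands, and for CAAGGTCA, the extended form that contains it and that monomeric receptors such as NR5A2 and the oestrogen-related receptors bind. The windows came from RefSeq on GRCh38.p14 and were 300 bases long, most of each lying upstream of an annotated start. AGGTCA was found in 16 of 96 windows of the receptor genes (16.7%), beside 13.8% of 35116 windows of all genes. Counted by gene, 11 of 41 receptor genes with a window (26.8%) and 16.5% of 27305 genes had at least 1 window with it. The receptor genes had more windows per gene, 96 for 41 genes beside 35116 for 27305, and so more chances of a match. Some windows of a gene also overlap and hold the same half-site. The shares by gene therefore cannot be read as an enrichment. CAAGGTCA was found in 0 of the 96 windows and in 1.28% of all windows. A match is a description of the letters and not a binding site, and the absence of one says only that the letters are not in the window. Shown first are NR2C1 (chr12:95073569-95073868, minus strand) and NR1I3 (chr1:161238154-161238453, minus strand), with 1 window each. The first is the receptor with an unadjusted p under 0.05 in every setting tried, and the second is a liver receptor with a difference near 0. Neither holds a half-site. NR5A2 (chr1:200027460-200027759, plus strand) and PPARG (chr3:12287118-12287417, plus strand) follow as receptors with a half-site, capitals marking it. These windows were picked for their match. Both genes have further windows, some of which hold no half-site. Counted from the annotated start, the first base of each marked half-site lies at position -84 in NR5A2, and at -217 and -184 in PPARG.
NR2C1: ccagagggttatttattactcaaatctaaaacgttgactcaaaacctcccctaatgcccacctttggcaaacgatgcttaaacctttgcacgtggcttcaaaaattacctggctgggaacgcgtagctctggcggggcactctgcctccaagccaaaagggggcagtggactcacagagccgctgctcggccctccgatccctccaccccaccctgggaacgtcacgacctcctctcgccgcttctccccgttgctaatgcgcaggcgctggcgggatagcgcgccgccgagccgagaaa
NR1I3: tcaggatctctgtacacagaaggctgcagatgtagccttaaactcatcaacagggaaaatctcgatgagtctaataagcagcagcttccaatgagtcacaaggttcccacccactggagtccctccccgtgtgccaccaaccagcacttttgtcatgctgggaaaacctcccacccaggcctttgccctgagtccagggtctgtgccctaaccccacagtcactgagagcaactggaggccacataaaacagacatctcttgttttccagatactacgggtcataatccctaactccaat
NR5A2: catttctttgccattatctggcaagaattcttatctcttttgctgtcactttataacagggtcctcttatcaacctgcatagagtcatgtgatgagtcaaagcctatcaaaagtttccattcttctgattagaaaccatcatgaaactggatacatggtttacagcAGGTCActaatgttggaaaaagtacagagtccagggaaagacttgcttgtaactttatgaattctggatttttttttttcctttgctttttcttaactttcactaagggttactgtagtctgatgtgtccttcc
PPARG: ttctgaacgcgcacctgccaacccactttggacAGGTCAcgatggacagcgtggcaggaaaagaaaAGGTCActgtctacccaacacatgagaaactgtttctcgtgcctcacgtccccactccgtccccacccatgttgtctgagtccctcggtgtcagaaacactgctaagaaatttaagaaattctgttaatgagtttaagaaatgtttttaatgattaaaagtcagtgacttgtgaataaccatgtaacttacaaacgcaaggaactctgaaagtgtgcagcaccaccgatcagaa

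NR0B2, also called SHP, lacks a DNA-binding domain and represses other receptors. It is induced by FXR and damps the synthesis of bile acids. Its log2 value was 6.06, 5.78 and 5.98 on the untreated arrays, and 6.19, 6.69 and 6.26 on the leaf-treated arrays. Every leaf-treated value was above every untreated value, and leaf-treated array 2 was the highest. The difference was 0.44 (SE 0.15, n = 3 and 3; 95% interval 0.08 to 0.80), or 1.36-fold higher, with an adjusted p = 0.50. In RNA of whole cultures a change in the number of cells that carry a transcript and a change in its amount per cell cannot be told apart. The unadjusted p was under 0.05 in 11 of 14 alternative settings, with differences between 0.29 and 0.55. The exceptions were the methods' analysis of variance and the fits without untreated array 2 or 3.

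Of the receptors for oxysterols and foreign compounds, both that were measured differed little. NR1H3 is the oxysterol receptor LXR-alpha, which raises cholesterol efflux and fatty acid synthesis. It was 3.82 on all 3 untreated arrays, and 3.45, 3.82 and 3.80 on the leaf-treated arrays. Leaf-treated array 1 stood lower, array 2 equalled the untreated value, and the groups overlapped, with a difference of -0.13 (95% interval -0.39 to 0.14). Repeated values are common in the table, in which 6 of the 39 receptors and 17.8% of all genes have 1 value on at least 3 arrays. The 6 receptors were NR1D1, NR1D2, NR1H3, NR2E3, NR4A3 and HNF4G. Whether this narrows the measured spread was not tested.

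NR1I3, the constitutive androstane receptor, switches on enzymes that clear drugs. Its values were 3.66, 3.65 and 3.65 in untreated cells, and 3.69, 3.74 and 3.71 in leaf-treated cells. The groups did not overlap, but the difference was 0.06 (95% interval -0.07 to 0.20), and it turned to -0.01 after quantile normalisation and to -0.00079 when arrays were centred on their medians. The nearest values of the groups were 3.66 and 3.69, and the unadjusted p of limma was not under 0.05.

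The group of fatty acid receptors and hepatocyte regulators had 6 measured receptors, PPARA, PPARD, PPARG, HNF4G, NR5A2 and NR5A1. NR5A1 was placed there beside its relative NR5A2 and not as a hepatocyte regulator. All 6 were above the olfactory level, with differences of -0.16 to 0.17 and none at an unadjusted p under 0.05. PPARA, which drives fatty acid oxidation in liver, was 4.43, 4.35 and 4.35 untreated, and 4.34, 4.52 and 4.21 leaf-treated. The leaf-treated values lay on both sides of the untreated ones, with a difference of -0.02 (95% interval -0.24 to 0.21). NR5A2, also called LRH-1, sustains bile acid and cholesterol genes in hepatocytes. It was 4.14, 4.08 and 4.07 untreated, and 3.95, 4.25 and 4.10 leaf-treated. The groups overlapped and the difference was 0.0019 (95% interval -0.21 to 0.22), with a sign that turned under quantile normalisation and under centring. PPARG, best known for adipocyte differentiation, is named after its values were seen. It was 5.28, 5.23 and 5.24 untreated, and 5.20, 5.74 and 5.31 leaf-treated. Leaf-treated array 2 was 0.49 above the untreated mean and the other leaf-treated arrays were -0.05 and 0.06 from it.

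The retinoid X receptors are the shared partners of many receptors above. RXRA, the form that prevails in liver, was 5.28, 5.51 and 5.20 in untreated cells, and 5.08, 5.39 and 5.28 in leaf-treated cells. The groups overlapped, with a difference of -0.08 (95% interval -0.36 to 0.20). RXRB was above the olfactory level on 5 arrays and RXRG on none, with differences of -0.07 and 0.08. RXRB had 3 clusters with the same values.

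Among the receptors for retinoic acid, thyroid hormone and vitamin D, THRA and THRB were above the olfactory level on all arrays. THRB, the main thyroid hormone receptor of liver, differed by -0.13 (95% interval -0.44 to 0.19). RARG was above the level on 1 array, and RARB and the vitamin D receptor VDR on none. The 5 differences reached from -0.13 (THRB) to 0.21 (VDR), and none had an unadjusted p under 0.05 in the main fit. VDR passed that p without untreated array 2.

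Of the steroid and oestrogen-related receptors, only NR3C1 and ESRRA were above the olfactory level on all arrays, and the 8 differences reached from -0.46 to 0.26. NR3C1, the glucocorticoid receptor, mediates the response to cortisol. Its value was 5.44, 5.34 and 5.61 untreated, and 4.72, 5.35 and 4.94 leaf-treated. Leaf-treated arrays 1 and 3 lay below all untreated arrays, whereas leaf-treated array 2 lay within them, so the groups overlapped. The difference was -0.46 (SE 0.17; 95% interval -0.86 to -0.06), or 1.38-fold lower, with an adjusted p = 0.51. Without leaf-treated array 2 it was -0.64, and without leaf-treated array 1 it was -0.32. The unadjusted p was under 0.05 in 9 of 14 alternative settings. It was not under 0.05 in the methods' analysis of variance nor without untreated array 1, untreated array 3, leaf-treated array 1 or leaf-treated array 3.

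ESRRA, which with PGC-1 coactivators drives mitochondrial genes, differed by -0.18 (95% interval -0.38 to 0.02). In the main fit its groups overlapped and its unadjusted p was not under 0.05. That p was under 0.05 after centring and without untreated array 2. The groups of ESRRA lay apart in those settings, after quantile normalisation and without leaf-treated array 3. ESR1, the oestrogen receptor alpha, was above the olfactory level on no array, at 2.93, 3.03 and 2.93 untreated, and 3.03, 3.23 and 3.41 leaf-treated. Its difference was 0.26 (adjusted p = 0.51) on the brighter of its 2 clusters and 0.14 on their mean, and the groups overlapped at 3.03. The unadjusted p was under 0.05 in 3 of 13 alternative settings, and not after quantile normalisation, centring, the replicate block or the methods' analysis of variance. Without leaf-treated array 3 the difference was 0.17. NR3C2, ESR2, ESRRB, ESRRG and PGR were likewise above the level on no array, with differences between -0.04 and 0.09.

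The clock receptors hold opposite roles at the same DNA elements, where the REV-ERB proteins NR1D1 and NR1D2 repress and the ROR proteins activate. NR1D1, NR1D2 and RORA were above the olfactory level on all arrays. RORA was 3.57, 3.56 and 3.48 untreated, and 3.80, 3.60 and 3.69 leaf-treated. All leaf-treated values were above the untreated ones, the nearest being 3.57 and 3.60. The difference of 0.16 (95% interval -0.02 to 0.35; adjusted p = 0.52) did not pass an unadjusted p under 0.05 in the main fit. It passed with array weights and without leaf-treated array 2. NR1D1 and NR1D2 differed by -0.02 and -0.07.

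The NR4A receptors are immediate early genes, induced within minutes to hours of a stimulus and active without a known natural ligand. NR4A1 was above the olfactory level on all arrays and differed by -0.08 (95% interval -0.31 to 0.15). NR4A2 was above it on no array, at 2.73, 2.69 and 2.58 untreated, and 3.11, 2.76 and 2.91 leaf-treated. Its groups did not overlap and the difference was 0.26 (SE 0.10; adjusted p = 0.51). The unadjusted p was under 0.05 in 6 of 13 alternative settings, and without leaf-treated array 1 the difference was 0.17 and did not pass it. NR4A3 differed by -0.06. The leaf-treated cells were collected after 24 h, the labels give no time for the untreated cells, and no earlier time was measured.

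The testicular, COUP-TF and related receptors are orphans, named before a ligand was known. NR2C1, also called TR2, was 6.07, 6.06 and 6.08 on the untreated arrays, and 5.69, 5.92 and 5.69 on the leaf-treated arrays. The untreated values had an SD of 0.01, and all leaf-treated values lay below them. The difference was -0.30 (SE 0.08, n = 3 and 3; 95% interval -0.50 to -0.10), or 1.23-fold lower, with an adjusted p = 0.44. It ranged from -0.38 to -0.21 over 14 alternative settings, in all of which the unadjusted p was under 0.05 and in none of which a receptor passed the adjustment. Its promoter window, printed above, holds neither AGGTCA nor its extended form. NR2C2, or TR4, with which NR2C1 forms a heterodimer, differed by 0.09 (95% interval -0.11 to 0.29).

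NR2E3, best known for rod photoreceptor development, and NR2F1, or COUP-TFI, are named after their values were seen. NR2E3 was 3.43, 3.71 and 3.71 untreated, and 4.33, 3.99 and 3.71 leaf-treated. Leaf-treated arrays 1 and 2 were above all untreated arrays, array 3 was not, and the difference was 0.39 (95% interval -0.01 to 0.80). NR2F1 was 4.76, 4.78 and 5.23 untreated, and 5.26, 5.24 and 5.11 leaf-treated. Untreated array 3 reached the leaf-treated values, and the difference was 0.28 (95% interval -0.05 to 0.61). NR2E1, a regulator of neural stem cells, was above the olfactory level on no array. It was 2.50, 2.66 and 2.72 untreated, and 2.89, 2.74 and 2.84 leaf-treated, with no overlap and a difference of 0.20. NR2F6 and NR6A1 were above the level, with differences of 0.07 and -0.05.

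**Figure D3:**
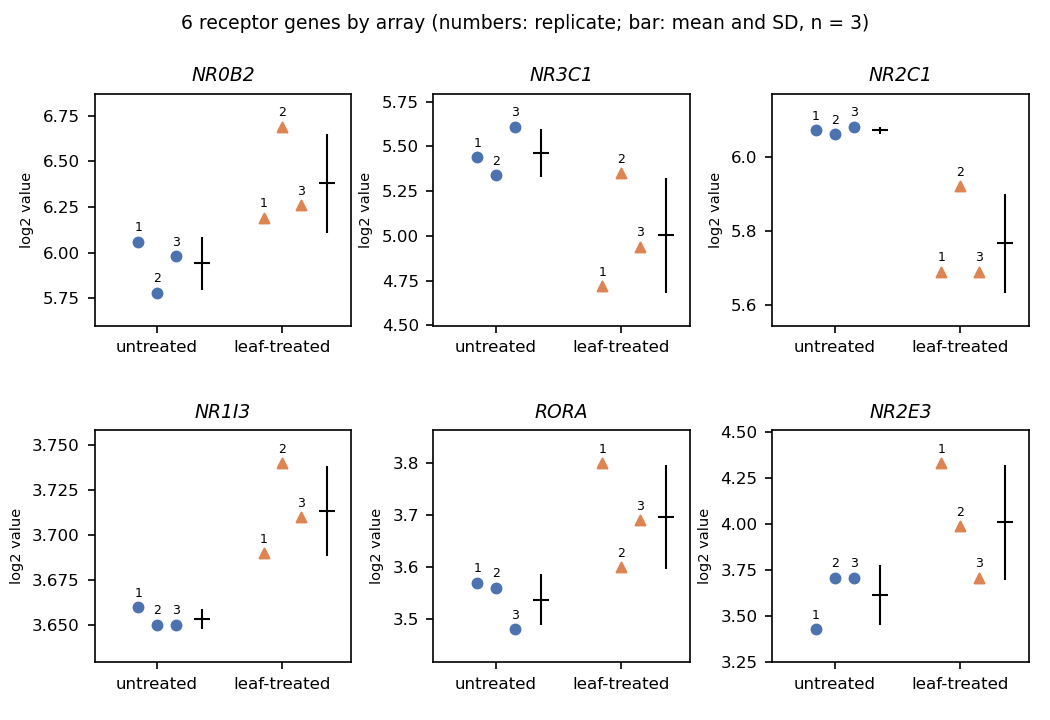
Log2 value (vertical axis, with its own range in each panel) of 6 receptor genes on 3 untreated arrays (circles) and 3 leaf-treated arrays (triangles), with array numbers beside the points and the mean and SD of each group as a bar (n = 3). The groups are apart for NR0B2, NR2C1, NR1I3 and RORA and overlap for NR3C1 and NR2E3, and for NR3C1 and NR2C1 leaf-treated array 2 lies nearest the untreated arrays.

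The 11 receptors above the olfactory level on no array had values of 2.50 to 3.41. Their differences reached from -0.04 to 0.26, of which 9 were positive, with a median of 0.08 beside 0.05 over the 339 olfactory receptor genes. An unadjusted p under 0.05 with a higher value was reached by NR4A2 and ESR1 among them, and by 2.95% of the olfactory receptor genes. Values at this height lie among those of the olfactory receptors.

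The 3 leaf-treated arrays did not stand equally far from the untreated ones. Over the 24 receptors above the olfactory level, the median distance from the untreated mean was 0.22 on leaf-treated array 1, 0.13 on array 2 and 0.07 on array 3, and 3, 8 and 13 of the 24 lay within the untreated range. These distances and counts were not taken over all genes. Over all genes, leaf-treated array 2 correlated most with the untreated mean (Pearson's r = 0.994 across genes, which are not independent replicates) and arrays 1 and 3 less (0.989 and 0.988). The order of the arrays thus differed between these measures, as array 3 was nearest over the receptors and correlated least over all genes. When leaf-treated array 2 was left out, 8.20% of all genes were higher and 11.9% lower at an unadjusted p under 0.05, with 4 and 2 of the receptors. The receptors were then NR0B2, NR2E1, NR4A2 and RORA higher and NR2C1 and NR3C1 lower.

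Genes that receptors regulate, or that make and clear their ligands, were counted from lists of textbook members. No gene of these lists passed the adjustment, and the shares of all genes at an unadjusted p under 0.05 given above, 3.83% higher and 5.9% lower, are the background of each count. In these lists 5 genes also reached 1.5 fold, namely CYP24A1, SULT2A1, HSD11B2, BHLHE40 and TXNIP. By both criteria the share of all genes was 0.849%. Each list held 6 to 23 measured genes, and some genes were in several lists. The lists were written with earlier results of these data known, so this count is not evidence of an excess. Of 9 measured FXR targets, 2 were higher at an unadjusted p under 0.05 and none lower, with a median difference of 0.11. These were NR0B2 and SLC51A, a subunit of the basolateral bile acid exporter. SLC51A was 3.29, 3.20 and 3.27 untreated, and 3.57, 3.37 and 3.68 leaf-treated, a difference of 0.29 (adjusted p = 0.49) with no overlap, and it was above the olfactory level on 5 arrays. Of 9 LXR targets, ABCG8, a sterol exporter of the canalicular membrane, was lower by that measure, with a difference of -0.24, while the desaturase SCD differed by 0.26 without passing it. The median of the LXR targets was 0.02.

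The 12 measured PPAR targets included none at an unadjusted p under 0.05, and their median difference was 0.05. PLIN2, a lipid droplet coat protein, differed by 0.22, and CYP4A11, a fatty acid omega-hydroxylase, by 0.18. The 8 measured targets of the pregnane X receptor and of NR1I3 had a median of -0.0017, and of these SULT2A1 alone passed that p. SULT2A1, which sulphates bile acids and steroids, was 6.90, 6.61 and 6.49 untreated, and 5.53, 6.05 and 5.37 leaf-treated. All leaf-treated values lay lower, and the difference was -1.02 (95% interval -1.49 to -0.55; adjusted p = 0.35), or 2.03-fold. CYP2B6, the classical target of NR1I3, differed by 0.14 and was above the olfactory level on no array.

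Glucocorticoid receptor targets were higher in 2 of 9 cases at an unadjusted p under 0.05 and lower in none, with a median of 0.10. DUSP1, a phosphatase of MAP kinases, was 5.59, 5.44 and 5.51 untreated, and 5.70, 5.97 and 5.87 leaf-treated. The groups did not overlap, and the difference was 0.34 (adjusted p = 0.44). The kinase SGK1 differed by 0.37 (adjusted p = 0.51) with overlapping groups. Of 9 HNF4A targets, only TTR, which carries thyroxine and retinol-binding protein, had an unadjusted p under 0.05, with a difference of 0.19, and their median was -0.06.

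Among 15 clock genes tied to the REV-ERB and ROR receptors, 1 was higher and 1 lower at that p, with a median of 0.01. BHLHE40, a repressor of clock genes, was 6.08, 6.07 and 6.21 untreated, and 6.72, 7.35 and 6.72 leaf-treated. All leaf-treated values were higher, and the difference was 0.81 (95% interval 0.38 to 1.23; adjusted p = 0.38), or 1.75-fold. NFIL3, a repressor under REV-ERB control, was 7.73, 7.76 and 7.73 untreated, and 7.17, 7.51 and 7.42 leaf-treated. The difference was -0.37 (adjusted p = 0.43), with no overlap.

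The vitamin D and thyroid hormone lists each held a gene past 1.5 fold. CYP24A1, the enzyme that inactivates vitamin D and a target of VDR, was 7.72, 7.63 and 7.49 untreated, and 6.51, 6.70 and 5.84 leaf-treated. The groups were apart, with a difference of -1.26 (95% interval -1.78 to -0.74; adjusted p = 0.33), or 2.40-fold lower, while VDR itself was above the olfactory level on no array. CAMP, an antimicrobial peptide gene and VDR target, differed by 0.29, and the median of the 6 vitamin D targets was 0.16. TXNIP, which binds thioredoxin and was counted here only in the thyroid hormone list, was 7.29, 7.41 and 7.34 untreated, and 7.99, 8.17 and 8.0 leaf-treated. Its groups were apart, with a difference of 0.71 (95% interval 0.52 to 0.89; adjusted p = 0.19), or 1.63-fold. DIO1, which activates thyroxine, differed by -0.57 (adjusted p = 0.51) with overlapping groups, and the median of the 6 thyroid hormone targets was 0.06.

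Of the 23 measured enzymes and carriers of ligands, 4 were lower and 1 was higher at an unadjusted p under 0.05, with a median of 0.03. The lower ones were CYP24A1, DIO1, ALDH1A1 and HSD11B2. ALDH1A1, which makes retinoic acid, was 10.83, 10.67 and 10.89 untreated, and 10.30, 10.56 and 10.47 leaf-treated, a difference of -0.35 (adjusted p = 0.45) with no overlap. HSD11B2, which inactivates cortisol, and CH25H, which makes an oxysterol, are named after their values were seen and differed by -0.63 and 0.30. HSD11B2 was above the olfactory level on 5 arrays and below it on leaf-treated array 1, at 2.91. Leaf-treated arrays 1 to 3 lay -1.12, -0.34 and -0.42 from its untreated mean. CH25H was above the olfactory level on no array. None of 6 retinoic acid targets and none of 16 coregulators had an unadjusted p under 0.05, with medians of 0.06 and -0.03. The smallest p among them belonged to TGM2, a transglutaminase induced by retinoic acid, which differed by 0.21, and to TBL1X and PRMT1 of the coregulators, which differed by 0.15 and -0.28.

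**Figure D4:**
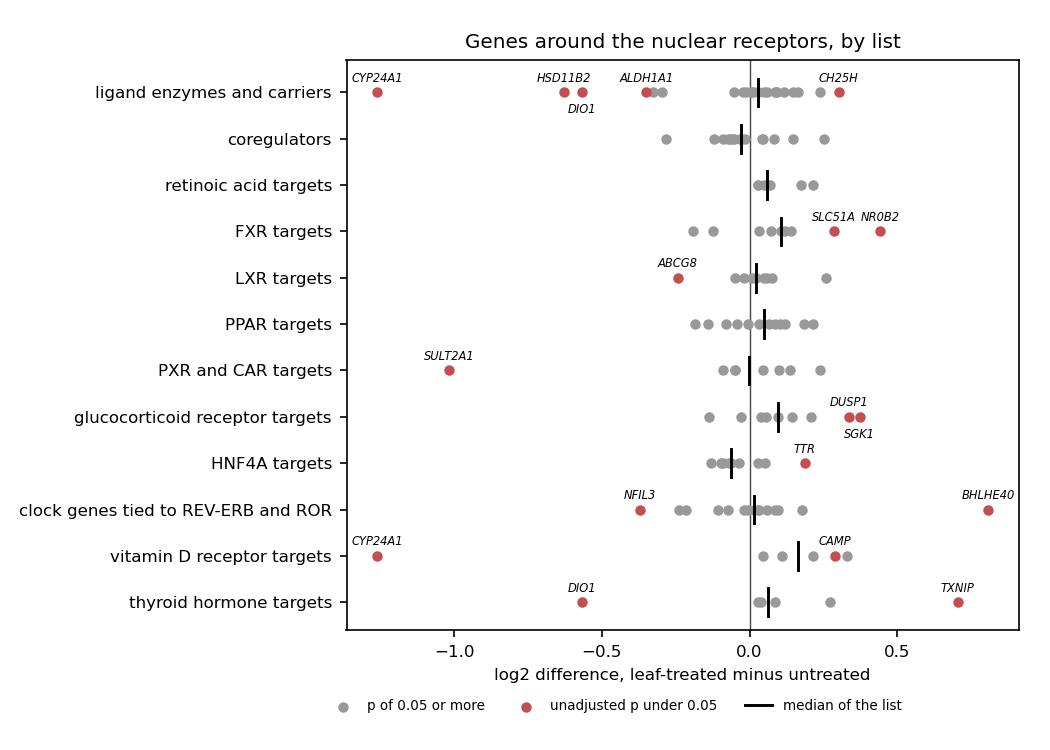
Log2 difference between leaf-treated and untreated cells (horizontal axis) of the measured genes of 12 lists around the nuclear receptors (rows), with each list's median as a vertical bar and genes at an unadjusted p under 0.05 in red with their symbols. CYP24A1 at -1.26, SULT2A1 at -1.02, BHLHE40 at 0.81 and TXNIP at 0.71 lie farthest from 0, and the medians lie between -0.06 and 0.16.

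The label of the cells was checked with marker genes. All 10 hepatocyte markers, among them ALB, AFP and APOA1, were above the olfactory level on all arrays, and their summed log2 level was 96.2 to 96.9 untreated and 94.95 to 96.8 leaf-treated. Of 17 measured markers of other cell types, LYZ, COL1A1, KRT14 and KRT16 were above it on all arrays. Another 6 were above it on part of the arrays, namely COL1A2 and PDGFRB on 4, KRT5 on 3, and CD14, COL3A1 and VWF on 2 each. The other 7, PTPRC, CD3E, PECAM1, CDH5, KDR, DCN and DSG3, were above it on no array. No marker of another cell type had an unadjusted p under 0.05. The 4 squamous epithelial markers had the highest median difference of these lists, 0.24. KRT14 was 4.0, 3.71 and 3.99 untreated, and 4.46, 3.87 and 4.40 leaf-treated, a difference of 0.34, and KRT16 differed by 0.27. Both keratins were above all untreated values on leaf-treated arrays 1 and 3 and not on array 2. Leaf-treated arrays 1 and 3 were also those on which NR3C1 lay below all untreated values. Summed log2 levels reached 19.0 to 19.5 untreated and 19.4 to 20.04 leaf-treated for leukocyte markers, 12.5 to 12.9 and 12.3 to 13.3 for endothelial, 16.5 to 17.0 and 16.7 to 18.0 for fibroblast, and 13.2 to 14.2 and 13.6 to 15.2 for squamous epithelial markers. Their part in the differences of the receptors was not tested.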

How the data were processed

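Arrays were Affymetrix Human Gene 1.0 ST. The values deposited for them are on the log2 scale, in 1 table. GCOS, Partek and RMA are the tools in the submitters' processing notes. RMA subtracts background, normalises arrays and summarises probes. Options, versions and genome build were not given in the sources used here. Of 33297 rows, 4468 were 0 on all arrays and were left out. The platform's annotation gave 19291 other rows exactly 1 symbol, 1735 several and 7803 none. The 19291 clusters were fitted with limma 3.58.1 (lmFit, eBayes) in R 4.3.3, without covariates, and p-values were Benjamini-Hochberg adjusted over them all. The fit was tested on simulated data. The number of arrays, 3 per group, limits the precision.

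Members and lists were chosen with earlier results of these data known. Values on every array are given for receptors at an unadjusted p under 0.05, for those whose groups did not overlap and for a list of liver receptors, and for up to 2 genes with the smallest p of each list. Alternatives covered scaling, a filter on dim clusters, the variance model, array weights, the test, clusters of a gene, a replicate block and leaving out each array. Promoters came from RefSeq.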

Additional observations from a re-analysis of the deposited data

How the results depend on the processing

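The adjustment was passed by 0 of the 39 receptors under every alternative tried, at which 2 to 7 had an unadjusted p under 0.05. The 7 were reached with array weights, where 5.41% of all genes were higher and 8.18% lower at that p. The count of 5 stood beside 3.83% and 5.9% of all genes in the main fit. It became 3 of 26 when dim clusters were left out, beside 4.06% and 7.91% of the genes kept. It became 2 (NR1I3 and NR2C1) in the methods' analysis of variance, beside 2.49% and 3.67%. The count was 2 to 6 when 1 array was left out, beside 2.04% to 8.20% of all genes higher and 2.95% to 11.9% lower. In those fits the 6 receptors whose groups did not overlap became 7 to 14, fewer arrays making this easier by construction. No share of all genes whose groups lay apart stands beside that range. The median difference was -0.056 with arrays centred on their medians, -0.029 without dim clusters and 0.039 with array weights, which gave leaf-treated array 2 the lowest weight (0.463). Over all genes the medians in these settings were -0.053, -0.018 and 0.014. Of the 12 receptors whose sign was followed over the settings, 4 turned. Over all 39, the positive differences were 21, 17 after quantile normalisation and 15 after centring. The difference of NR1I3 was -0.0073 after quantile normalisation and -0.00079 after centring. That of NR5A2 was -0.043 and -0.062 in those settings and -0.026 with array weights. With 1 array left out, NR5A2 ranged from -0.072 to 0.077, PPARA from -0.10 to 0.057 and RXRA from -0.15 to 0.0079. The causes were not tested. The receptors above the olfactory level were 31 at its 50th percentile, 17 at its 99th, 26 when 3 arrays sufficed, and 24 or 25 with 1 array left out. Same-numbered arrays were not paired by the data (correlations of deviations -0.12, -0.18 and 0.12). With the replicate number as a replicate block 0 receptors passed the adjustment and 4 an unadjusted p under 0.05. In that setting 3.72% of all genes were higher and 4.94% lower at that p. For receptors above the olfactory level the 95% interval was 0.14 to 0.40 wide on either side, by receptor.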
